A study of Danio rerio with 5 samples.

Results

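The peaks of chromosome 4 were taken as every row of the 5 deposited ATAC-seq peak lists that names this chromosome, 346 of 5366 peaks. ATAC-seq maps open chromatin by the sites at which the Tn5 transposase can insert sequencing adapters. The peaks were merged across libraries wherever they shared at least 1 bp, which gave 102 of the 1326 merged regions of the series. Chromosome 4 was read in fixed stretches by the start of a peak, with 61 peaks below 28 Mb, 171 from 28 to 29 Mb and 114 from 29 Mb to the last peak at 76327080. The stretch from 29 Mb was also read in steps of 5 Mb. Coordinates were read as GRCz10, the zebrafish build named by the submitters. They count from 1 and have no arm annotation, so the boundary at 28 Mb is a fixed position and not a mapped centromere.

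The mutant larvae carried uhrf1 hi272, an insertional allele whose zygosity the labels do not state, and gave 2 libraries, mutants 1 and 3. They were set against 3 libraries, numbered 1 to 3, from phenotypically normal siblings, whose own genotypes at uhrf1 are not given. All were whole ABNYU larvae at 120 h after fertilization, so a peak list mixes every cell type of the body, although the protocol also speaks of livers. The labels give 50000 cells per library, and name either 10 embryos or a pool of 3 larvae per genotype, so whether libraries are separate pools is not known and p-values measure the spread between libraries, which may be technical. Libraries held 766 peaks in mutant 1 and 1191 in mutant 3, against 806, 1229 and 1374 in controls 1, 2 and 3, with no read depth given behind them.

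The long arm of zebrafish chromosome 4 is known as a largely heterochromatic, late-replicating arm. It is rich in satellite and transposon repeats, in 5S ribosomal and small nuclear RNA genes and in large families of NOD-like receptor and zinc-finger genes. Its distal end carries the sex-linked region of wild zebrafish. Uhrf1 binds newly replicated, hemimethylated DNA and recruits Dnmt1 to restore its methylation, and repeats of this kind are normally methylated, which makes the arm a place where mutants and siblings may be compared. No gene or repeat is assigned to any peak here.

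Chromosome 4 carried 34 accessible regions that were shared by all 5 libraries, most of them below 29 Mb. Past 29 Mb, it carried 30 weak regions that were found in a single library, 15 of them in mutant 1. Both mutants shared a peak that every control lacked in 0 of 102 regions of the chromosome, and the 3 controls shared one that the mutants lacked in 0 of 102. Over all merged regions of the series these classes held 0.528% and 0.226%, so neither count of 0 sets chromosome 4 apart. A peak in all 5 libraries was found in 34 of the 102 regions (33.3%), where all merged regions gave 45.1%. A peak in 1 library was found in 37 regions (36.3%), where all merged regions gave 21.8%. The recurrence differed between the stretches, of which the one from 28 to 29 Mb was set apart with earlier results of these data known. All 5 libraries shared 6 of 14 regions below 28 Mb, 22 of 33 regions from 28 to 29 Mb and 6 of 55 regions from 29 Mb.

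Peak numbers on the chromosome were 60 in mutant 1 and 72 in mutant 3, against 43, 78 and 93 in controls 1, 2 and 3. A q above 0.05 was listed for 4 and 5 of these peaks in mutants 1 and 3, against 5, 5 and 8 in controls 1, 2 and 3. As a share of each library's own peaks the numbers were 7.83% and 6.05% in mutants 1 and 3, against 5.33%, 6.35% and 6.77% in controls 1, 2 and 3. Mutant 1 had the highest of the 5 shares, and mutant 3 lay inside the control range. The mean was 6.94 ± 1.26% in mutants (SD, n = 2) and 6.15 ± 0.74% in controls (SD, n = 3), a difference of 0.79 percentage points with a two-sided exact permutation p of 0.6. With 5 libraries the smallest p this test can give is 0.2, so no comparison of genotypes here could pass 0.05. Without mutant 1 the difference was -0.10 percentage points.

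**Figure D1:**
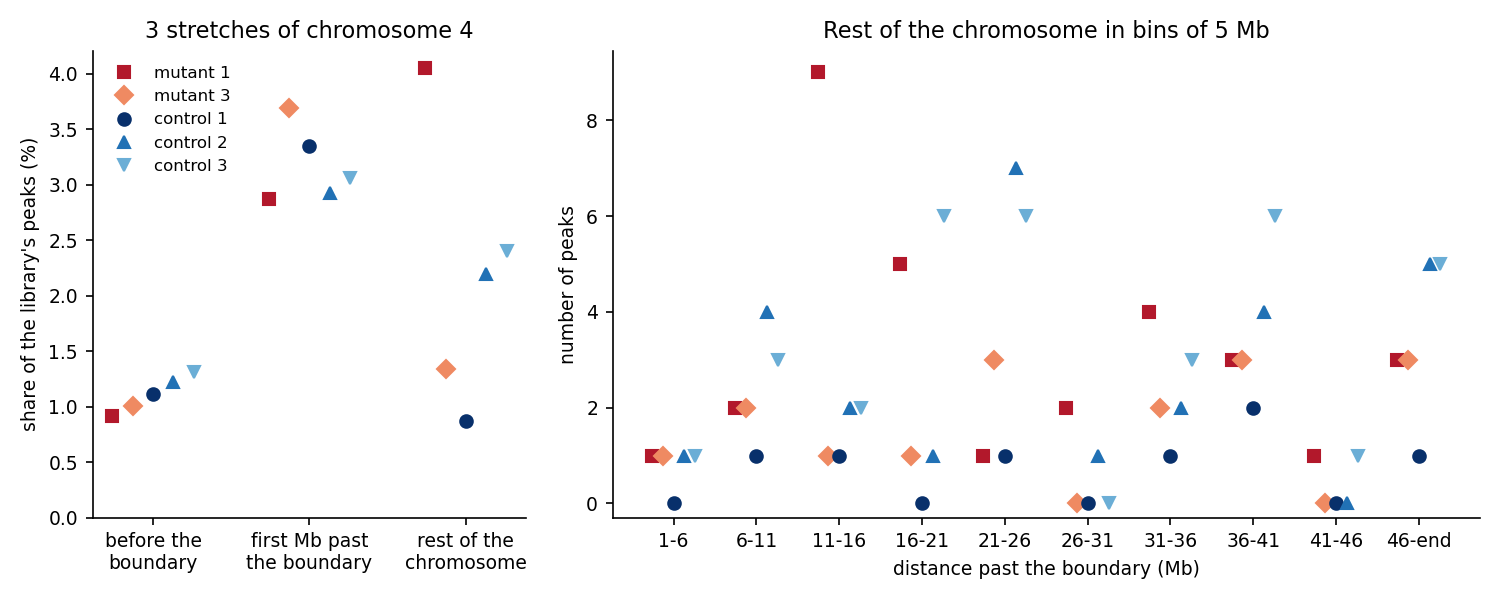
Left, share of each library's own peaks (percent) before the boundary at 28 Mb, in the first Mb past it and on the rest of the chromosome. Right, number of peaks in bins of 5 Mb by distance past the boundary. Each point is 1 library; mutants 1 and 3 hold 4.05% and 1.34% of their peaks on the rest of the chromosome, against 0.868% to 2.40% in the controls.

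Below 28 Mb, the peaks were confined to 1 dense group and 7 scattered regions. At least 3 neighbouring regions, each no more than 50 kb from the next, were read as a group. The group ran from 26860027 to 26905088 and held 7 of the 14 regions, 5 of them present in every library. Its peaks covered 10.1 kb in mutant 1 and 8.66 kb in mutant 3, against 9.44, 7.85 and 5.71 kb in controls 1, 2 and 3. The region of highest fold enrichment inside the group, at 26878567 to 26881288, had a fold of 4.16 and 3.81 in mutants 1 and 3, against 3.91, 4.01 and 4.42 in controls 1, 2 and 3. Fold enrichment is the value the authors deposited for a peak, read here as a ratio to the background of its own library. Folds of several libraries are therefore set side by side without a test. Where a library split a region into several peaks, the highest of their folds stands for the region. Outside the group, a single region had a peak in every library, at 5848918 to 5849669. Its fold was 5.82 and 5.53 in mutants 1 and 3, against 5.34, 4.47 and 5.17 in controls 1, 2 and 3, and its 5 peaks were 721 to 752 bp wide. The region at 2424735 to 2424898 had a peak in every library but control 1, with folds of 3.19 and 2.72 in mutants 1 and 3, against 3.67 and 2.19 in controls 2 and 3. The other 3 regions named here, at 26860027 to 26860921, 26873953 to 26875644 and 26893780 to 26895992, belonged to the group and had folds between 2.00 and 3.81.

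The share of peaks below 28 Mb did not overlap between the genotypes. Among 199 windows of 5 Mb on the other chromosomes, 10.1% had no overlap, with mutants lower in 2.01%. Those windows are narrower than this bin and are no matched background for it. Below 28 Mb, the share was 0.914% in mutant 1 and 1.01% in mutant 3, against 1.12%, 1.22% and 1.31% in controls 1, 2 and 3. The mean was 0.96 ± 0.07% in mutants (SD, n = 2) and 1.22 ± 0.10% in controls (SD, n = 3). The exact permutation p was 0.2, with an adjusted value of 1 over the 12 bins (Benjamini-Hochberg). The covered length did overlap, with 11.1 and 9.55 kb in mutants 1 and 3, against 10.2, 9.59 and 6.97 kb in controls 1, 2 and 3. Limiting the lists to a q of 1e-05 or less turned the direction of the share round, with a difference of 0.21 percentage points. Counting each merged region once for a library left a difference of -0.12 percentage points. Mutant 1 had 7 peaks in 7 regions and mutant 3 had 12 in 9, against 9 peaks in 7 regions, 15 in 12 and 18 in 12 in controls 1, 2 and 3. Peaks per region thus overlapped between the genotypes, with an exact permutation p of 0.6.

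From 28 to 29 Mb, the accessible regions were dense, shared and alike in both genotypes in covered length. This 1 Mb was kept apart because earlier results of these data showed many peaks there. Its density is thus no independent finding. All 33 regions lay in 3 groups. The first, from 28562653 to 28627668, held 17 regions over 65.0 kb. The second, from 28738977 to 28755120, held 8 over 16.1 kb, and the third, from 28916438 to 28933788, held 8 over 17.4 kb. In the 3 groups, 10, 6 and 6 regions were common to the 5 libraries, and leaving out any 1 library left the total at 22. Mutant 1 had a peak in those 22 regions and in no other. Peaks of this 1 Mb covered 31.4 kb in mutant 1 and 27.9 kb in mutant 3, against 26.5, 33.5 and 30.3 kb in controls 1, 2 and 3. The mean was 29.7 ± 2.48 kb in mutants (SD, n = 2) and 30.1 ± 3.49 kb in controls (SD, n = 3), and the exact permutation p was 1. The sign of this small difference depended on the setting. It was 0.93 kb when q was limited to 1e-05 and 1.30 kb without control 2.

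The number of peaks gave a different picture from the covered length in this stretch. It was 22 in mutant 1 and 44 in mutant 3, against 27, 36 and 42 in controls 1, 2 and 3, whereas the share of the library's peaks was 3.28 ± 0.58% in mutants (SD, n = 2) and 3.11 ± 0.22% in controls (SD, n = 3); the exact permutation p was 0.8. Each region of mutant 1 was 1 unbroken peak. Mutant 3 had 1.42 peaks per region, against 1.17, 1.29 and 1.40 in controls 1, 2 and 3. The region at 28581089 to 28585844 shows it most plainly and was chosen after its values were seen. Mutant 1 had 1 peak of 3316 bp there and mutant 3 had 5 peaks of 1838 bp in sum, against 3 peaks of 1970 bp, 4 of 2992 bp and 4 of 2197 bp in controls 1, 2 and 3. The same order of splitting held off chromosome 4, with 1.04 peaks per region in mutant 1 and 1.30 in mutant 3, against 1.15, 1.19 and 1.24 in controls 1, 2 and 3.

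**Figure D2:**
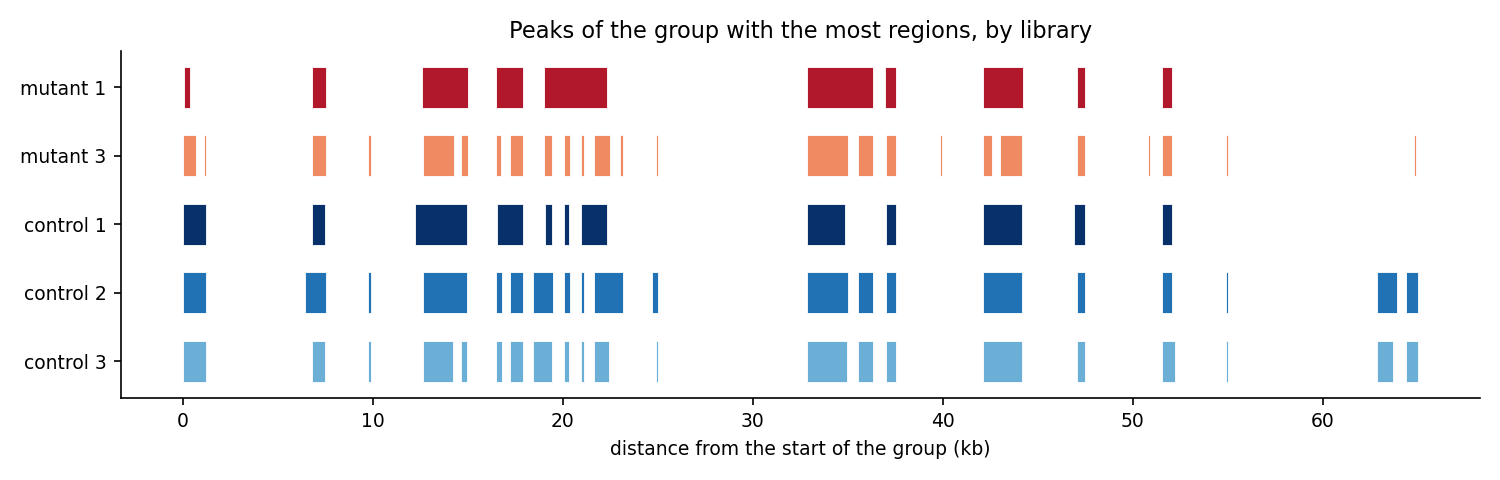
Peaks of the first group, 28562653 to 28627668, drawn to scale by distance from its start (kb), with a row for each library. Mutant 1 has 10 unbroken peaks and mutant 3 has 25, against 12, 20 and 21 in controls 1, 2 and 3, and most peaks of the libraries lie at the same places.

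At the head of the first group, the region at 28562653 to 28563897 was among the highest of the chromosome. Its fold was 11.7 in mutant 1 and 8.47 in mutant 3, against 6.59, 9.50 and 8.40 in controls 1, 2 and 3, and it ranked 7th and 19th in the lists of mutants 1 and 3, against 41st, 19th and 22nd in those of controls 1, 2 and 3. The peak of mutant 1 was 324 bp wide, and the peaks of the other libraries were 840 to 1245 bp in sum. Mutant 3 had a second peak there, with a fold of 3.63. The folds thus come from intervals of unlike width, and their order is mixed with width and splitting. Further along, 28614187 to 28614904 had a fold of 7.55 and 6.52 in mutants 1 and 3, against 6.16, 6.22 and 5.39 in controls 1, 2 and 3. The same rule named 3 others, at 28604782 to 28606855, 28609580 to 28610128 and 28916438 to 28916871, and their folds ran from 3.16 to 5.83. The fold of 5.83 was that of a 457 bp peak of mutant 3 at 28604782, whose other peak in the region had 2.77. Some regions of the groups were not shared. Controls 2 and 3 had a peak at 28625496 to 28626548 (fold 2.11 and 2.01) and no other library did. Mutant 3 alone had peaks at 28602502 to 28602602 (fold 2.03) and 28613436 to 28613551 (fold 1.34). These 3 regions were chosen after their values were seen. A peak in controls 2 and 3 alone was found in 6 of the 102 regions of the chromosome, 4 of them past 29 Mb, where all merged regions gave 9.95%. Controls 2 and 3 had the longest of the 5 lists.

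From 29 Mb, the peaks were sparse, with a mean of 0.48 per Mb against 0.44 below 28 Mb. The libraries of each genotype differed widely. There were 31 peaks in mutant 1 and 16 in mutant 3, against 7, 27 and 33 in controls 1, 2 and 3. Each lay in a region of its own. The share of the library's peaks was 4.05% and 1.34% in mutants 1 and 3, against 0.868%, 2.20% and 2.40% in controls 1, 2 and 3. Mutant 1 lay above every control, and mutant 3 lay between control 1 and the other controls. The mean was 2.70 ± 1.91% in mutants (SD, n = 2) and 1.82 ± 0.83% in controls (SD, n = 3), a difference of 0.87 percentage points (exact permutation p of 0.6). Covered length behaved alike, with 16.6 and 5.07 kb in mutants 1 and 3, against 3.16, 9.73 and 9.94 kb in controls 1, 2 and 3, an exact permutation p of 0.6. Both directions rested on mutant 1. Without it, the differences were -0.48 percentage points and -2.54 kb.

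A small core of 6 regions past 29 Mb had a peak in every library, and the highest fold of the stretch in each list lay among them. Some core regions had lower folds than less shared ones. The region at 61790952 to 61791352 stood far above the others. Its fold was 15.6 in mutant 1 and 17.1 in mutant 3, against 19.3, 20.7 and 18.8 in controls 1, 2 and 3. It ranked 4th and 5th of all peaks in the lists of mutants 1 and 3, against 2nd, 4th and 4th in those of controls 1, 2 and 3, and its peaks were 375 to 400 bp wide. A neighbour at 61870547 to 61870808 had folds of 5.90 and 4.98 in mutants 1 and 3, against 5.30 and 6.84 in controls 2 and 3, and no peak in control 1.

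A close pair of sites also belonged to the core. The first, 68416935 to 68417486, had folds of 5.49 and 5.71 in mutants 1 and 3, against 6.36, 5.87 and 4.93 in controls 1, 2 and 3. Its partner at 68420178 to 68420453 had folds of 3.41 and 4.75 in mutants 1 and 3, against 4.22, 4.56 and 2.93 in controls 1, 2 and 3. The genotypes overlapped at both sites. A site at 42207560 to 42208525 had folds of 3.34 and 3.02 in mutants 1 and 3, against 3.44, 3.80 and 3.62 in controls 1, 2 and 3. The remaining 2 of the 6 were lower. The site at 53828782 to 53829367 had folds of 2.19 and 2.78 in mutants 1 and 3, against 2.07, 3.53 and 3.32 in controls 1, 2 and 3. The region at 76325721 to 76327080, which ends at the last coordinate of the chromosome in the lists, had folds of 2.16 and 2.18 in mutants 1 and 3, against 2.34, 2.45 and 2.62 in controls 1, 2 and 3. In fold, both mutants lay below every control in 3 of the 6 core regions, at 42207560, 61790952 and 76325721, and the genotypes overlapped in the other 3. By rank of fold in each library's own list, the genotypes were not separated at these 3 sites. At 42207560 the ranks were 165 and 242 in mutants 1 and 3, against 181, 139 and 150 in controls 1, 2 and 3. At 76325721 they were 465 and 579 in mutants 1 and 3, against 470, 430 and 335 in controls 1, 2 and 3. At 61790952 mutant 1 tied with controls 2 and 3. Of the 34 regions of chromosome 4 in all 5 libraries, both mutants were below every control in 5 and above every control in 4, where the 598 such regions of the series gave 12.0% and 8.03%. These orders were counted after the values were seen and have no test.

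Control 1 had little beyond this core. Its 7 peaks from 29 Mb were the 6 core regions and the region at 35357966 to 35358372, where mutant 1 had a fold of 2.05, against 1.81, 1.68 and 1.67 in controls 1, 2 and 3. Mutant 3 had no peak there. Leaving out control 1 gave 9 regions shared by all remaining libraries, and leaving out any other library gave 6 or 7.

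**Figure D3:**
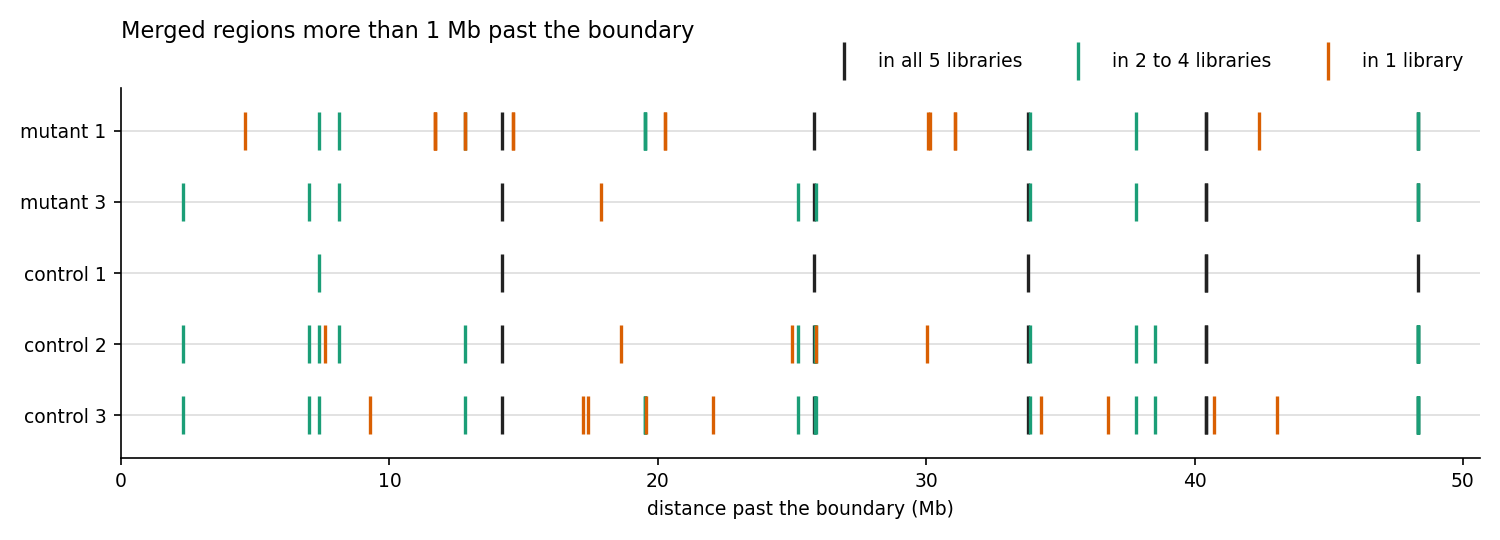
Merged regions with a peak more than 1 Mb past the boundary, by distance past 28 Mb (Mb), with a row for each library and a colour for recurrence. The 6 regions in all 5 libraries form columns, whereas mutant 1 carries 15 regions found in no other library and mutant 3 carries 1, against 0, 5 and 9 in controls 1, 2 and 3.

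Most regions past 29 Mb were found in few libraries. A single library had the peak in 30 of the 55 regions, where all merged regions of the series gave 21.8%. These 30 regions were found in mutant 1 (15 regions) and mutant 3 (1 region), and in controls 1, 2 and 3 (0, 5 and 9 regions). Peaks of a library that lay in regions common to all 5 made up 19.4% and 37.5% of its peaks past 29 Mb in mutants 1 and 3, against 85.7%, 22.2% and 18.2% in controls 1, 2 and 3. Off chromosome 4 the same shares were 84.1% and 72.2% in mutants 1 and 3, against 87.3%, 64.1% and 62.8% in controls 1, 2 and 3. The share past 29 Mb was lower in 5 of 5 libraries, by -37.5 ± 23.0 percentage points on average (SD of the difference, n = 5), with a two-sided exact sign-flip permutation p of 0.0625, the smallest that 5 libraries can give. The libraries are not independent in this measure, since each enters the definition of a common region. Past 29 Mb, each library has 1 peak in each of the same 6 common regions. Its share there is thus fixed by its number of peaks, and the p-value does not rest on 5 separate replicates. Set against the peaks below 28 Mb of the same library, the share differed by -38.7 ± 23.05 percentage points (SD of the difference, n = 5). It was lower in 5 of 5 libraries, again with an exact sign-flip p of 0.0625 and an adjusted value of 0.25 over 4 measures. The same limit holds here. With 28 to 29 Mb counted in the far stretch, the difference was -10.1 percentage points (exact sign-flip p of 0.1875).

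The other 3 measures did not go the same way in all 5 libraries. The median peak was 318 ± 130 bp wide from 29 Mb and 791 ± 582 bp below 28 Mb (SD, n = 5), an exact sign-flip p of 0.125. It was wider from 29 Mb in 1 of 5 libraries, and the mean difference of -472.9 bp kept its sign in every alternative setting. Peaks per Mb were 0.48 ± 0.23 and 0.44 ± 0.16 (SD, n = 5), with an exact p of 0.8125. This depended on keeping 28 to 29 Mb apart. Counted in the far stretch, it gave a difference of 0.74 peaks per Mb (exact sign-flip p of 0.0625). The median fold was 2.37 ± 0.61 and 2.34 ± 0.43 (SD, n = 5), with an exact p of 0.875, and without control 1 its difference changed sign to -0.25. The stretch below 28 Mb is largely the single group that starts at 26860027, so these values compare the stretch from 29 Mb with that group more than with the whole stretch below 28 Mb.

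The regions found in mutant 1 alone lay mostly past 29 Mb on chromosome 4 in the lists as deposited, but not in every alternative setting. Of the 26 regions of the whole series that had a peak in mutant 1 and in no other library, 15 (57.7%) lay past 29 Mb on chromosome 4. In mutant 3 this was 1 of 49 regions (2.04%). In controls 1, 2 and 3 it was 0 of 3, 5 of 73 (6.85%) and 9 of 138 (6.52%). Over all merged regions, 1.96% and 3.70% were found in mutant 1 alone and mutant 3 alone, against 0.226%, 5.51% and 10.4% in controls 1, 2 and 3 alone. The count of regions in mutant 1 alone past 29 Mb was chosen after its values were seen and has no test. With lists of equal length 23 of 98 such regions lay there (23.5%), at a reciprocal overlap of 50% it was 16 of 95 (16.8%), and at a q limit of 1e-05 it was 6 of 12 (50%). Without mutant 3 it was 15 of 33 (45.5%), and without control 3 it was 18 of 36 (50%). Of all 1326 merged regions of the series, 55 lay past 29 Mb on chromosome 4.

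These 15 regions were weak and often lay side by side. Their folds ran from 1.58 to 2.67 with a median of 1.91, and 11 of them reached a q of 0.05 and 4 a q of 1e-05. The median width was 316 bp, from 162 to 2044 bp, against 98 bp for the 1 region of mutant 3 alone and 191 and 134 bp for those of controls 2 and 3 alone. Peaks of mutant 1 were also wide over its whole list, with a median of 735.5 bp against 398 bp in mutant 3 and 609.5, 410 and 348 bp in controls 1, 2 and 3. Another region lay within 10 kb of 11 of the 15, and they fell into 5 close runs, with gaps of at most 10 kb. The run from 39705563 to 39711173 had 3 regions, all in mutant 1 alone, which covered 3.56 kb. The run from 48253957 to 48255940 had 2, with the highest fold of the 15, 2.67, at 48255393 to 48255940. Runs of 2 also lay at 42613915 to 42616284 and at 59072623 to 59074415. The fifth run, from 40797435 to 40803863, included a region shared with controls 2 and 3, at 40797435 to 40798045, with a fold of 2.59 in mutant 1, against 1.72 and 1.88 in controls 2 and 3. Read depth is unknown, so a missing peak does not show that the site was closed in the other libraries.

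**Figure D4:**
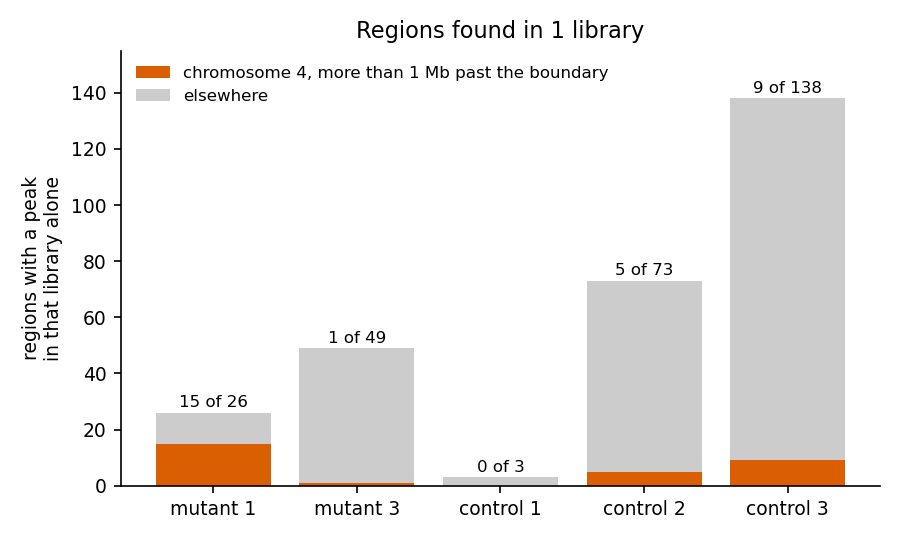
Number of merged regions of the whole series with a peak in 1 library alone, by library, with those on chromosome 4 more than 1 Mb past the boundary in orange. The orange part is 15 of 26 in mutant 1 and 1 of 49 in mutant 3, against 0 of 3, 5 of 73 and 9 of 138 in controls 1, 2 and 3.

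Past 29 Mb, the bins between 39 and 49 Mb separated mutant 1 from mutant 3. From 39 to 44 Mb there were 9 and 1 peaks in mutants 1 and 3, against 1, 2 and 2 in controls 1, 2 and 3. Of the 9 regions of this bin, 7 were found in mutant 1 alone. From 44 to 49 Mb there were 5 and 1 peaks in mutants 1 and 3, against 0, 1 and 6 in controls 1, 2 and 3. Mutant 1 and control 3 shared 3 regions here and no other library had them, from 47527502 to 47530368, with folds of 1.83, 2.16 and 1.84 in mutant 1, against 1.79, 1.96 and 1.81 in control 3. The middle one, at 47528583 to 47529183, had a −log10 q of 5.54 in mutant 1, against 5.58 in control 3. The high values of this bin thus came from 1 library of each genotype.

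The next bin was high in controls 2 and 3 instead. From 49 to 54 Mb there were 1 and 3 peaks in mutants 1 and 3, against 1, 7 and 6 in controls 1, 2 and 3. In this bin 2 regions had a peak in controls 2 and 3 and in no mutant, at 53852838 to 53853004 (fold 2.02 and 2.08) and 53869058 to 53869205 (fold 2.34 and 1.81). With gaps of at most 50 kb, both belong to the group of the core region at 53828782, which ends at 53897332. Controls 2 and 3 had the longest lists, and 9.95% of all merged regions had a peak in them alone. The bin at 54 to 59 Mb had 2 and 0 peaks in mutants 1 and 3, against 0, 1 and 0 in controls 1, 2 and 3. The highest of the mutant 1 peaks was at 58147879 to 58148088, with a fold of 2.33. From 59 to 64 Mb there were 4 and 2 peaks in mutants 1 and 3, against 1, 2 and 3 in controls 1, 2 and 3, so the genotypes overlapped.

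Toward both ends of the stretch from 29 Mb, the next bins held at most 6 peaks in any library. From 29 to 34 Mb there was 1 peak in each library but control 1, which had 0. In mutant 3 and controls 2 and 3 it was the same region, 30294876 to 30295012, with a fold of 3.70 in mutant 3, against 3.44 and 3.26 in controls 2 and 3. Mutant 1 had its peak elsewhere. From 34 to 39 Mb there were 2 peaks in each mutant, against 1, 4 and 3 in controls 1, 2 and 3. The region at 36113612 to 36114655 had a peak in both mutants and 1 control, with folds of 2.04 and 1.52 in mutants 1 and 3, against 1.89 in control 2, and mutant 3 did not reach a q of 0.05 there (−log10 q of 0.343). From 64 to 69 Mb there were 3 peaks in each mutant, against 2, 4 and 6 in controls 1, 2 and 3. A region in this bin had a peak in controls 2 and 3 and no mutant, at 66538578 to 66538738 (fold 2.28 and 1.82). From 69 to 74 Mb there were 1 and 0 peaks in mutants 1 and 3, against 0, 0 and 1 in controls 1, 2 and 3, the last at 71066399 to 71066515.

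The last bin, from 74 Mb, was a single group at the end of the chromosome. It ran from 76314801 to 76327080 and held 5 regions. Mutants 1 and 3 had 3 peaks each, against 1, 5 and 5 in controls 1, 2 and 3. Its peaks covered 1.49 and 1.18 kb in mutants 1 and 3, against 0.547, 3.37 and 2.44 kb in controls 1, 2 and 3. Controls 2 and 3 were high in this group and control 1 was low, so the genotypes overlapped. One region of the group, at 76321217 to 76321554, had a peak in controls 2 and 3 and in no mutant (fold 1.84 and 1.57).

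Over the 12 bins, the share of peaks did not overlap between genotypes in 2. Both mutants were lower below 28 Mb and higher from 29 to 34 Mb. In windows of 5 Mb on the other chromosomes the genotypes did not overlap in 10.1% of 199, with mutants higher in 8.04% and lower in 2.01%. The bin below 28 Mb is wider than these windows and the bin from 28 to 29 Mb is narrower. The windows are thus no matched background for those bins. The bin from 29 to 34 Mb rested on at most 1 peak in a library, and control 1 had 0. The smallest exact p over the bins was 0.2, the least the design allows, and the smallest adjusted value was 1. No bin had more peaks in both mutants than in every control, a count of 0 when peak numbers were compared in place of shares.

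**Figure D5:**
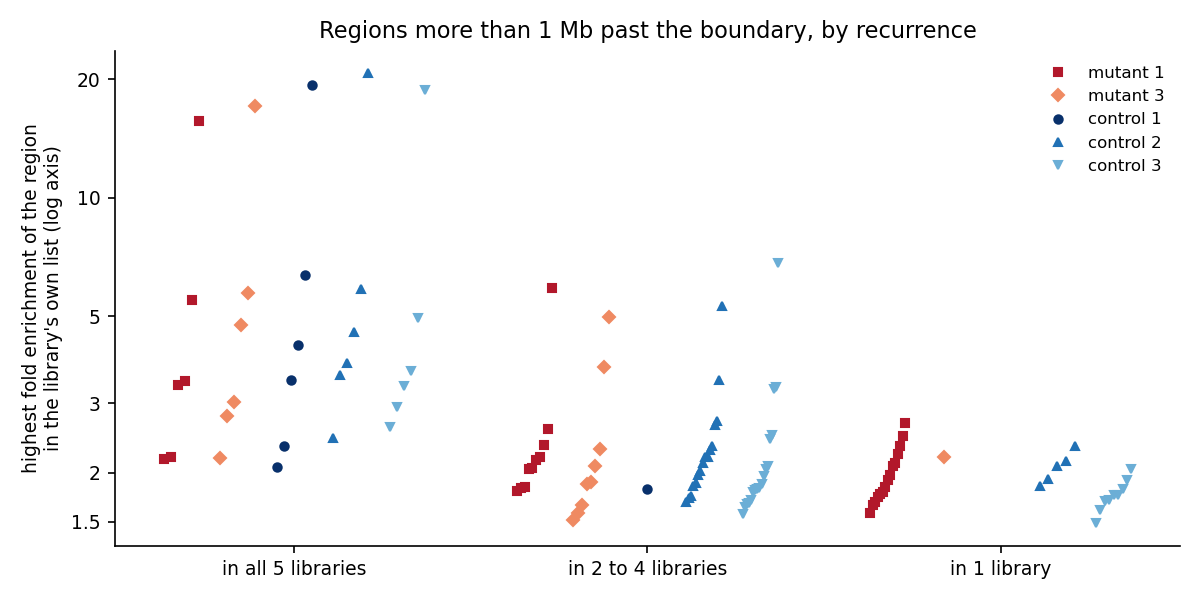
Highest fold enrichment of each region more than 1 Mb past the boundary in the library's own list (log axis), by the number of libraries with a peak. Points are regions. Those in all 5 libraries run from 2.16 to 15.6 and from 2.18 to 17.1 in mutants 1 and 3. In controls 1, 2 and 3 they start at 2.07, 2.45 and 2.62 and reach 18.8 to 20.7. The highest point of each library is the region at 61790952. Those in 1 library lie between 1.49 and 2.67, so the ranges overlap.

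Past 29 Mb, the regions common to all 5 libraries had a higher median fold than the less shared ones in each library. A region counts as common only if a peak was called in every list, so this order follows in part from the definition. It was also seen from 28 to 29 Mb, where regions of all 5 and of 2 to 4 libraries had medians of 2.72 and 1.59 in mutant 3. In controls 1, 2 and 3 these were 2.61 and 1.93, 2.61 and 2.08, and 2.42 and 1.97. Mutant 1 had no less shared region there. Below 28 Mb, mutant 1 went the other way. Its median was 2.67 in regions of all 5 libraries, and its single region of 2 to 4 libraries had 3.19. Mutant 3 and the controls kept the order below 28 Mb. For the regions past 29 Mb shared by all 5 libraries, the median fold was 3.38 and 3.88 in mutants 1 and 3, against 3.83, 4.18 and 3.47 in controls 1, 2 and 3. In regions of 2 to 4 libraries it was 2.10 and 1.90 in mutants 1 and 3, against 1.81, 2.15 and 1.85 in controls 1, 2 and 3, with a single such region in control 1. In regions of 1 library it was 1.91 and 2.19 in mutants 1 and 3, against 2.08 and 1.75 in controls 2 and 3, and the value of mutant 3 is that of a single region. Of the 30 regions of 1 library, 24 reached a q of 0.05 and 8 a q of 1e-05. All 6 core regions reached a q of 1e-05 in at least 1 library, and so did 13 of the 19 regions of 2 to 4 libraries.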

How the data were processed

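ATAC-seq peak lists of 5 zebrafish libraries were used as deposited, in the broadPeak layout without a header and with peaks called per library. The fold enrichment of a peak is a value that the authors deposited and that was read as a ratio, beside its deposited −log10 p-value and −log10 q-value. The score deposited with it is 10 times −log10 q, cut to its whole part, in all 5366 rows. The submitters' processing notes name FastQC 0.11.5, Trimmomatic, BWA, Picard and, among other builds, GRCz10. For the peak caller, the handling of reads that map to several places and the read depth, the sources used here give nothing.

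Peaks of chromosome 4 were merged at 1 bp or more of overlap (bedtools 2.31.1 gave the same 102 regions) and binned by start. Values per library were compared by exact permutation, two-sided, over the 10 choices of 2 libraries, or by exact sign flips within libraries, with Benjamini-Hochberg adjustment (Python 3.11.15, numpy 2.4.6, pandas 2.3.3; figures by matplotlib 3.10.9). Functions were checked on simulated lists or set values. The permutation test between genotypes was also checked on random numbers against scipy 1.17.1. Members, bins and lists were chosen with earlier results of these data known. By rule, the text names regions that lean to 1 genotype from 29 Mb, the 5 of highest mean percentile of fold found in all libraries below 28 Mb and from 28 to 29 Mb, and 1 in each later bin. Alternatives were q limits of 1e-05 and 0.05, lists of 766 peaks each, chromosomes 1 to 25 alone, other merging, other bins, merged regions in place of peaks, leaving out each library and replicate blocks. Sequence, genes and repeats were not analysed, as GRCz10 itself was not used here.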

Additional observations from a re-analysis of the deposited data

How the results depend on the processing

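No alternative could bring a comparison of genotypes past 0.05, so only direction and size are described. Among peaks at a q limit of 1e-05, the mutant minus control difference was 2.67 in peak number (main value -5.33), 0.21, -0.013 and -0.025 percentage points in the shares below 28 Mb, from 28 to 29 Mb and from 29 to 34 Mb, and 0.93 kb in covered length from 28 to 29 Mb, with 0 bins without overlap, 6 regions past 29 Mb in mutant 1 alone and -0.028 peaks per Mb between far and near stretch. Lists of equal length gave 8.33 peaks, -0.17 percentage points and 0.51 kb from 28 to 29 Mb, 1 bin and 23 regions in mutant 1 alone. Bins without overlap numbered 1 with bins of 10 Mb, 0 by number of peaks and 1 at a q limit of 0.05. Reciprocal overlap of 50% left 20 regions in all libraries and put 16 of the 95 regions of mutant 1 alone past 29 Mb (16.8%). Counting 28 to 29 Mb with the far stretch gave a far minus near difference in median fold of -0.071. That setting raised the difference in peaks per Mb to 0.74 (main value 0.046). It shrank the difference in the share of peaks in common regions to -10.1 percentage points (main value -38.7).

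Without 1 library at a time, the chromosome's peak number differed by -19.5 to 5.50, and its share was moved between -0.10 and 1.68 percentage points. From 28 to 29 Mb these settings moved the share between -0.24 and 0.58 percentage points and the covered length between -2.19 and 1.35 kb. From 29 Mb they moved the same measures between -0.48 and 2.22 percentage points and between -2.54 and 9.03 kb, both low ends without mutant 1 and both high ends without mutant 3. They gave 2 to 8 bins without overlap, 0 to 15 regions found only in mutants, 0 to 6 found only in controls, and far minus near differences of -0.25 to 0.28 in median fold and -0.044 to 0.10 peaks per Mb. Fewer libraries loosen the definitions of the counts; otherwise the cause was not tested. The replicate block set mutant 1 against control 1 and mutant 3 against control 3, although nothing in the labels says that the numbers pair the samples. With it the covered length from 28 to 29 Mb differed by 1.30 kb, 1 region was found only in mutants, and no other direction changed. Of the 25 regions named by rule, 15 had a peak in the same number of libraries at a q limit of 1e-05 and 15 with equal lists. No peak was left in 4 of them at that q limit and in 3 with equal lists. Regions that the text names outside the rule are not in these counts. The q limit of 0.05, the counting of merged regions in place of peaks and the count for mutant 1 alone were chosen after seeing the data. Read depth is unknown and limits every count.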
